A study of Mus musculus with 16 samples.

Results

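Neuropeptide genes named as induced by nerve injury were followed in the dorsal root ganglia (DRGs) of 16 mice. The 8 genes were Npy, Gal, Nts, Vip, Ucn, Cck, Crh and Adcyap1, and each was found by its symbol among the 52636 genes of the count tables. They were taken to be selected on their levels in injured mice given saline against sham mice given saline, although the contrast is not named. The values of that contrast are therefore a description, with no test. In the mice given DMI, which had no part in that contrast, Npy, Nts and Ucn rose after injury. Results of these mice may still have entered the choice of genes. Ucn had enough counts to be tested only with the injured libraries included. The call on Nts was lost when only the 8 libraries of the mice given DMI were fitted (adjusted p = 0.146 in edgeR). Gal, Cck and Adcyap1 were higher in every injured than in every sham mouse there but did not pass the test, Gal and Cck passing in some alternatives. Crh did not pass, and Vip was too scarce to be tested.

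All mice were male C57BL/6J, 3 to 4 months old, and each library came from the L3 to L6 DRGs of 1 mouse. Spared nerve injury (SNI), in which the common peroneal and sural branches of the left sciatic nerve are tied and cut and the tibial branch is left intact, was compared with sham surgery. Desipramine (DMI), a tricyclic antidepressant that blocks noradrenaline reuptake, was injected intraperitoneally at 15 mg/kg 2 times a day for 3 weeks, and the other mice received saline. Treatment began 4 weeks after surgery per the labels, whereas the methods text gives the same number in months. Surgery and drug were crossed, with 4 mice each for Sham-Saline, Sham-DMI, SNI-Saline and SNI-DMI. SNI cuts the axons of only part of the neurons in these ganglia, and the side from which ganglia were taken is not given in the sources used here.

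Neuropeptides are made as precursors, cleaved and amidated in dense-core vesicles, and released to act on G-protein-coupled receptors. Axotomy is a classic switch of sensory neuron peptides: neuropeptide Y, galanin, vasoactive intestinal peptide and PACAP have long been described as appearing or increasing in cut neurons, beside the injury transcription factor Atf3. The transcripts were therefore read against Atf3, their receptors, the processing enzymes and the other peptide precursors of the ganglion.

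Between 41194238 and 73920332 reads per library were counted on genes. Values below are CPM, reads normalised to library size and scaled by the TMM method, given for replicates 1 to 4 in order. A gene was called when its adjusted p in edgeR's quasi-likelihood test, fitted across all genes, was under 0.1. Under tissue the labels say spinal cord, and under cell type dorsal root ganglia. The 16 sensory neuron markers summed to 9380 to 10999 CPM per library, and the 16 spinal cord markers to 21.7 to 55.2 CPM. In these bulk samples, fewer cells of a type and less RNA per cell cannot be told apart. The sequencing numbers in the sample titles ran from 17 to 24 in the DMI libraries and from 33 to 40 in the saline libraries, so DMI and that order cannot be told apart. Within each run of numbers the groups also followed each other.

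Npy, the precursor of the inhibitory transmitter neuropeptide Y, was scarce in sham mice given saline and among the more abundant transcripts after injury. The gene (ENSMUSG00000029819) lies on chromosome 6, from 49822710 to 49829507 on the plus strand in GRCm38. Its level was 0.157, 1.55, 0.249 and 0.106 CPM in Sham-Saline and 22.3, 23.8, 19.4 and 26.2 CPM in SNI-Saline. Replicate 2 of Sham-Saline stood above the other sham mice, yet no sham mouse came near an injured mouse. In the DMI groups it measured 0.512, 4.5, 1.5 and 3.34 CPM in Sham-DMI and 26.9, 19.4, 17.6 and 33 CPM in SNI-DMI. The groups again did not overlap. Per kilobase of exon, the mean level of Npy exceeded that of 33.1% of 21324 tested genes in Sham-Saline and of 94% in SNI-Saline, and of 58.6% in Sham-DMI and 94.1% in SNI-DMI.

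Nts encodes the precursor of neurotensin and neuromedin N (ENSMUSG00000019890, chromosome 10, 102481756 to 102490486, minus strand). Unlike Npy it was readily measured in sham mice, at 12.1, 10.8, 8.62 and 9.87 CPM in Sham-Saline. In SNI-Saline it reached 73.3, 66, 62.8 and 82.2 CPM. In Sham-DMI the values were 18.4, 24.2, 15.8 and 38.7 CPM, all above the highest Sham-Saline mouse. In SNI-DMI they were 74.6, 55.5, 52 and 91.5 CPM, and thus within or close to the range of SNI-Saline.

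Ucn encodes urocortin, a ligand of the CRH receptors (ENSMUSG00000038676, chromosome 5, 31138063 to 31138829, minus strand). It was the scarcest of the 3 genes, at 0.0869, 0.141, 0.0779 and 0.0453 CPM in Sham-Saline, which rest on 23 counts in all. SNI-Saline mice had 1.5, 1.45, 1.56 and 1.41 CPM, with an SD of 4.47% of the mean. These values rest on 83 to 97 counts per library, whose counting error is larger than that SD. Their closeness is therefore no measure of the variation between mice. Sham-DMI mice had 0.0854, 0.274, 0.025 and 0.158 CPM and SNI-DMI mice 1.55, 1.7, 1.09 and 2.41 CPM. Injured and sham mice were apart with either treatment.

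**Figure D1:**
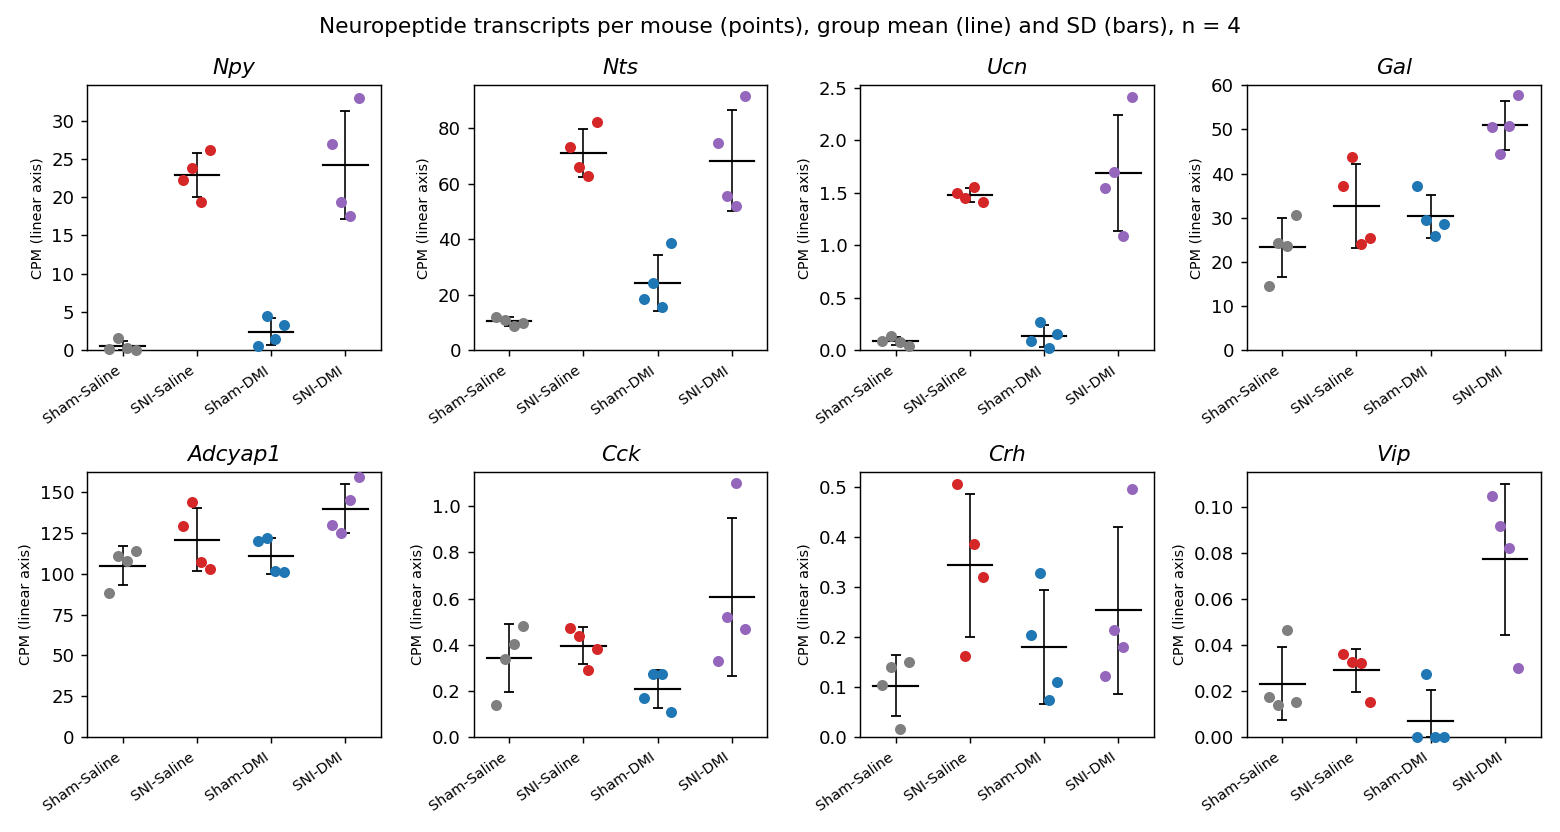
CPM of the 8 neuropeptide genes on linear axes, 1 panel per gene, with 1 point per mouse, the group mean as a horizontal line and the SD as bars (4 mice per group). Npy, Nts and Ucn were apart between SNI and Sham with either treatment, Gal was highest in SNI-DMI (50.9 ± 5.47 CPM), and Vip stayed at or below 0.105 CPM.

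Because Npy, Nts and Ucn rose together and Gal followed a separate course, the starts of these 4 genes are shown. The sequences come from RefSeq on GRCm38.p6 and run from 250 bases before to 50 bases after the start site, 5′ to 3′ on the strand of the gene. Capitals mark letters of the cAMP response element (CRE, TGACGTCA), of its core TGACG, or of an AP-1 motif (TGACTCA or TGAGTCA), on either strand; a core inside a CRE was counted too. AP-1 motifs are bound by factors of the Jun family, and CRE motifs by CREB and ATF factors. Npy lies at chr6:49822460-49822759 (plus), Nts at chr10:102490369-102490668 (minus), Ucn at chr5:31138846-31139145 (minus) and Gal at chr19:3414495-3414794 (minus).
Npy: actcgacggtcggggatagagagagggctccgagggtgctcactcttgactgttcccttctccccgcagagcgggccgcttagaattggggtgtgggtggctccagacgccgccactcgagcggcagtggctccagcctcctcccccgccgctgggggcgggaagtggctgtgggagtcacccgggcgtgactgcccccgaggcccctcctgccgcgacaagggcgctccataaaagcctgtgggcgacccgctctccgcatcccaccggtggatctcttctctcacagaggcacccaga
Nts: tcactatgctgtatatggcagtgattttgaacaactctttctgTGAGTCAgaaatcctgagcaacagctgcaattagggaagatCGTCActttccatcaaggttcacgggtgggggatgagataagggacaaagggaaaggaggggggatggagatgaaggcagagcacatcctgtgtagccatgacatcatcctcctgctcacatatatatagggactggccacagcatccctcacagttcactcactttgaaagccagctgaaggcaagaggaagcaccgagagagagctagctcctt
Ucn: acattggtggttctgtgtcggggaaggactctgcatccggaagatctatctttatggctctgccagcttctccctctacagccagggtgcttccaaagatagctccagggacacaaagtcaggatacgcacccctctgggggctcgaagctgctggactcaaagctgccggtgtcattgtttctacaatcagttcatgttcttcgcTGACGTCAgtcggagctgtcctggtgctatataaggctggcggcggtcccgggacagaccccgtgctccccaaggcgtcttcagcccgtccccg
Gal: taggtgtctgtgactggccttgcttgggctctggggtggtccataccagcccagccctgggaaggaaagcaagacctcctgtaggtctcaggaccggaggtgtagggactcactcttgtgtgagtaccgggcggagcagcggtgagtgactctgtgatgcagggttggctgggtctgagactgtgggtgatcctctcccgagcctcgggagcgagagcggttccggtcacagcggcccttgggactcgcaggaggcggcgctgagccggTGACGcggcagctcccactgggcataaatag

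With the start site as base 1, Ucn carried a full CRE from position -44, which 1.79% of 32851 RefSeq promoters of this length hold. Nts carried an AP-1 motif from position -207, as do 5.2% of promoters, and a CRE core from position -166. Gal had a CRE core downstream of the start, at position 20. Of the 7 genes with a promoter entry 6 held the core TGACG, Npy being the exception, against 20.8% of all promoters. For Vip the core lay at position -79, for Cck at -47 and for Adcyap1 at -91 from the first of its 2 listed starts. Crh has no entry. These matches describe letters in a window, and an absent motif says nothing about the factors that bind there.

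Galanin, encoded by Gal (ENSMUSG00000024907, chromosome 19, 3409915 to 3414544, minus strand), was already abundant in sham mice and showed little separation in the saline groups. Sham-Saline mice had 14.6, 24.2, 23.6 and 30.7 CPM and SNI-Saline mice 37.3, 43.7, 24.1 and 25.4 CPM. Replicates 3 and 4 of SNI-Saline lay inside the sham range. With DMI the levels were 37.2, 29.6, 25.8 and 28.5 CPM in Sham-DMI and 50.5, 44.5, 50.8 and 57.9 CPM in SNI-DMI. All 4 SNI-DMI mice exceeded every mouse of the other groups.

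Adcyap1, which encodes the neurotrophic peptide PACAP (ENSMUSG00000024256, chromosome 17, 93199017 to 93206537, plus strand), followed the course of Gal at a smaller scale. It measured 88, 111, 108 and 114 CPM in Sham-Saline and 129, 144, 107 and 103 CPM in SNI-Saline, and these groups overlapped. It measured 120, 122, 102 and 101 CPM in Sham-DMI and 130, 125, 145 and 159 CPM in SNI-DMI, without overlap.

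Cck, the precursor of cholecystokinin (ENSMUSG00000032532, chromosome 9, 121489824 to 121495694, minus strand), rested on 7 to 67 counts per library. It had 0.139, 0.339, 0.405 and 0.483 CPM in Sham-Saline and 0.471, 0.44, 0.289 and 0.382 CPM in SNI-Saline, which overlapped. It had 0.171, 0.274, 0.275 and 0.11 CPM in Sham-DMI and 0.331, 0.521, 1.1 and 0.467 CPM in SNI-DMI. Every SNI-DMI mouse was above every Sham-DMI mouse, and replicate 3 had the most.

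Corticotropin-releasing hormone, the product of Crh (ENSMUSG00000049796, chromosome 3, 19693401 to 19695396, minus strand), rested on 1 to 33 counts per library. The levels were 0.104, 0.141, 0.0156 and 0.151 CPM in Sham-Saline and 0.507, 0.163, 0.386 and 0.321 CPM in SNI-Saline, just apart. In Sham-DMI they were 0.205, 0.329, 0.0749 and 0.11 CPM and in SNI-DMI 0.122, 0.214, 0.181 and 0.497 CPM, which overlapped.

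Vip, the precursor of vasoactive intestinal peptide (ENSMUSG00000019772, chromosome 10, 5639218 to 5647617, plus strand), was at the edge of detection. Over 4 libraries it had 6 counts in Sham-Saline and 7 with injury, and 2 counts in Sham-DMI and 19 with injury. In Sham-DMI 3 of the 4 libraries had no count, and 3 counts, the limit that a count of 0 allows, would be 0.0473 to 0.0749 CPM in these 3 libraries. Levels in SNI-DMI were 0.105, 0.0919, 0.0825 and 0.0301 CPM. The gene failed the filter on low counts and was not tested. Fitted without that filter, injury under DMI gave a log2 fold change of 2.95 (adjusted p = 0.216, edgeR).

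Per kilobase of exon the 8 genes spanned a wide range of levels. In Sham-Saline Gal (29.6 ± 8.43 CPM per kb, SD, n = 4) and Adcyap1 (27.9 ± 3.12) led and did not differ beyond their spread. Nts (8.29 ± 1.18) came next, followed by Npy (0.912 ± 1.23), Cck (0.262 ± 0.113), Ucn (0.174 ± 0.079), Crh (0.078 ± 0.0467) and Vip (0.00686 ± 0.0046). The spread of Npy covered those of Cck, Ucn, Crh and Vip, and the spread of Ucn overlapped those of Cck and Crh. In SNI-Saline the order of means was Nts (56.9 ± 6.91 CPM per kb), Gal (41.4 ± 12.1), Npy (40.5 ± 5.03) and Adcyap1 (32 ± 5.16). The spread of Gal overlapped those of Nts, Npy and Adcyap1, and Npy and Adcyap1 overlapped too. Ucn (2.94 ± 0.131) stood alone, and Cck (0.303 ± 0.0612) and Crh (0.261 ± 0.109) were alike. In SNI-DMI Gal (64.6 ± 6.94) and Nts (54.8 ± 14.7) had the highest means, with Npy at 42.8 ± 12.5, Adcyap1 at 37 ± 4.06 and Ucn at 3.35 ± 1.09. For scale, Calca, the precursor of the peptide CGRP, stood at 454 ± 27.8 CPM per kb in Sham-Saline and 512 ± 30.1 after injury.

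The contrast taken to have chosen the genes, SNI-Saline against Sham-Saline, gave these sizes, with no test. The log2 fold change was 5.41 for Npy (SE 0.592), 4.03 for Ucn (SE 0.395), 2.78 for Nts (SE 0.232) and 1.70 for Crh (SE 0.565). The sizes were smaller for the rest, at 0.48 for Gal (SE 0.196) and 0.20 for both Adcyap1 (SE 0.108) and Cck (SE 0.402). Without Sham-Saline replicate 2 the size was 7.06 for Npy and 4.38 for Ucn. On the linear scale Npy was 42.5-fold, Ucn 16.3-fold and Nts 6.87-fold higher. The median of the 7 genes was 1.70, against -0.001 over all 21371 genes tested. The 4 genes with the largest sizes were without overlap between the groups, as were 7.67% of all genes in the direction of higher levels. In this contrast 12% of all genes were called, and 5.85% were called as higher. Nothing is read from the members' share here, because their choice was taken to rest on this contrast.

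SNI-DMI against Sham-DMI asked whether the same genes rise in injured mice that receive DMI, and it shares no mouse with the choosing contrast. Results of these mice may still have entered the choice, since earlier results of these data were known. Ucn rose 11.3-fold (log2 fold change 3.50, SE 0.37, adjusted p = 0.000432), Npy 9.55-fold (3.26, SE 0.501, adjusted p = 0.0067) and Nts 2.8-fold (1.49, SE 0.219, adjusted p = 0.00548). Thus 3 of the 7 tested genes were called, where 0.402% of all genes were called and 0.374% were called as higher. Ucn, with 36 counts in Sham-DMI, and Crh, with 46, failed the low-count filter when only sham libraries were fitted. Both were therefore tested here only because injured libraries were fitted too. The count of 3 includes Ucn, a gene admitted by its high group. The counts out of 7 genes in this paragraph and their median include both Ucn and Crh. In 6 of the 7 genes, all but Crh, every injured mouse was above every sham mouse, which holds for 2.89% of all genes. Without Sham-DMI replicate 2, the highest sham mouse for Npy and Ucn, the log2 fold change of Ucn was 4.11. The median log2 fold change of the 7 genes was 1.49, against 0.001 over all genes.

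Gal and Cck missed the threshold in this comparison and sit close to it. On the log2 scale Gal was higher by 0.75 (SE 0.195, adjusted p = 0.138) and Cck by 1.55 (SE 0.419, adjusted p = 0.157). Gal passed with DESeq2, without the filter on low counts, with only the 8 libraries compared, and without Sham-Saline replicate 1 or Sham-DMI replicate 1, with adjusted p from 0.0118 to 0.177 over the processing alternatives and from 0.0621 over the fits without 1 library. Cck passed with DESeq2 (adjusted p = 0.0451) and without the filter. Adcyap1 (0.33, SE 0.108, adjusted p = 0.24) and Crh (0.45, SE 0.541, adjusted p = 0.775) did not pass in any fit run here. With only the 8 libraries compared, the call on Nts was lost (adjusted p = 0.146), while Npy and Ucn stayed called at 0.0611.

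**Figure D2:**
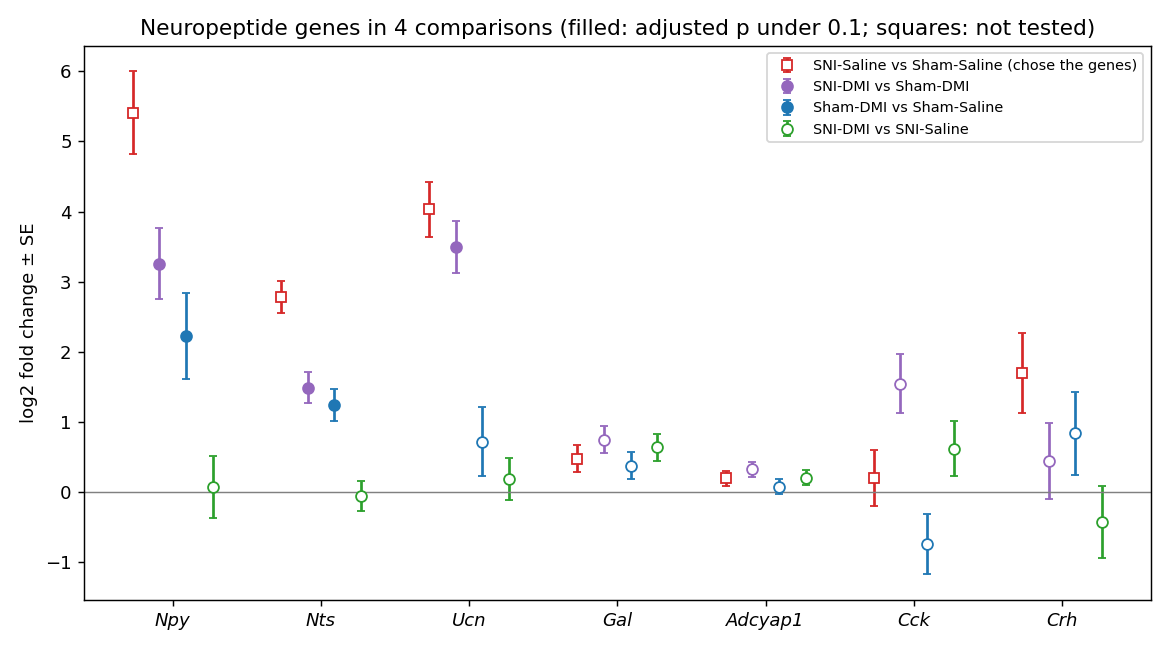
Log2 fold changes with SE bars for the 7 neuropeptide genes that could be fitted, in 4 comparisons given by colour. Squares show the contrast taken to have chosen the genes and carry no test. Filled circles have an adjusted p under 0.1: Npy, Nts and Ucn for injury under DMI, and Npy and Nts for DMI in sham mice. Ucn and Crh had enough counts to be fitted only with the injured libraries included.

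No difference between DMI and saline was detected in injured mice for the transcripts raised by injury. SNI-DMI against SNI-Saline, which shares the SNI-Saline mice with the choosing contrast, gave log2 fold changes of 0.08 for Npy (95% interval -0.78 to 0.94), -0.05 for Nts (-0.47 to 0.36) and 0.19 for Ucn (-0.38 to 0.77). The adjusted p-values in edgeR were 0.945, 0.918 and 0.766. None of the 7 genes was called, whereas 2.93% of all genes were, and 1.32% as higher. Gal came closest, at 0.64 (SE 0.194, interval 0.26 to 1.02, adjusted p = 0.107), with every SNI-DMI mouse above every SNI-Saline mouse, as in 7.33% of all genes. Among the processing alternatives its adjusted p lay between 0.0496 and 0.188, and it passed with DESeq2, without the low-count filter, with a minimum of 10 counts in every library and with only the 8 libraries compared. It also passed without Sham-Saline replicate 1, SNI-Saline replicate 2, Sham-DMI replicate 1 or Sham-DMI replicate 2, the adjusted p ranging from 0.0614 to 0.314 without 1 library. Adcyap1 (0.21), Cck (0.62) and Crh (-0.42) had adjusted p from 0.299 to 0.697.

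In sham mice DMI went with higher Nts and Npy. Nts rose 2.36-fold in Sham-DMI over Sham-Saline (log2 fold change 1.24, SE 0.227, adjusted p = 0.00278), without overlap between the groups, as in 8.62% of all genes. Npy rose 4.7-fold (2.23, SE 0.612, adjusted p = 0.0193), with Sham-Saline replicate 2 above replicates 1 and 3 of Sham-DMI. Without that saline mouse the log2 fold change of Npy was 3.88 (adjusted p = 0.00322). These 2 of 7 genes stand beside 23.4% of all genes called in this comparison, 11.6% as higher. Neither call was lost in any fit without 1 library, where the adjusted p stayed at or below 0.0119 for Nts and 0.0638 for Npy. Ucn (0.72, SE 0.489, adjusted p = 0.34), Gal (0.38, SE 0.196, adjusted p = 0.201) and Crh (0.84, SE 0.595, adjusted p = 0.365) did not pass, nor did Adcyap1 (0.08) or Cck (-0.74). Gal passed only without Sham-Saline replicate 4 (0.54, adjusted p = 0.0837). Sham-Saline is also the reference of the choosing contrast. Replicates 2 and 4 of Sham-DMI had the highest Npy, Nts and Ucn of the sham mice treated with DMI, and also the highest Atf3, at 20.6 and 21.8 CPM against 11.4 and 13.7 CPM in replicates 1 and 3.

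The estimated injury effect on Nts and Npy was smaller under DMI than under saline, but that difference did not pass the correction. Its test, which includes the choosing contrast, gave -1.29 for Nts (SE 0.31, adjusted p = 0.619) and -2.15 for Npy (SE 0.757, adjusted p = 0.619). After correction over all genes in edgeR, 0% of genes were called, with 1692 genes (7.92%) at an unadjusted p under 0.05 and 16 called by DESeq2, and Npy, Nts and the other members were not among these 16. The difference for Cck was 1.35 (SE 0.581, adjusted p = 0.619) and for Ucn -0.53 (SE 0.565, adjusted p = 0.83).

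The likeness of the 7 tested genes to other genes is given as correlations of log2 CPM over the 16 libraries, which share surgery and treatment groups, and then after removal of the group means. Npy was most like Sprr1a (r = 0.982, within groups 0.83), Atf3 (0.962, 0.69) and Nts (0.948, 0.45). Nts was most like Cckbr (0.985, 0.86), Sprr1a (0.974, 0.73) and Atf3 (0.974, 0.79). Ucn was most like Star (0.976, 0.82), Fgf3 (0.974, 0.83) and Atf3 (0.965, 0.74). Sprr1a is a growth-associated gene of regenerating neurons, Cckbr a cholecystokinin receptor, Star a cholesterol transporter of mitochondria and Fgf3 a growth factor. Gal was most like S100a11 (0.958, 0.88), Tac1 (0.934, 0.93) and Smim3 (0.931, 0.9). Tac1 encodes substance P, a peptide of nociceptors. Adcyap1 was most like Gal (0.929, 0.89), Olfm2 (0.917, 0.86) and Rasl11a (0.906, 0.85). For the sparse genes the nearest were Cisd2, Enc1 and Arap3 for Cck (0.832, 0.819 and 0.785) and Gm13216, Lamp3 and Gm5518 for Crh (0.822, 0.82 and 0.817), which in counts this low carry little weight.

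Atf3 measured 12.1, 11.9, 10.6 and 7.44 CPM in Sham-Saline and 11.4, 20.6, 13.7 and 21.8 CPM in Sham-DMI. Injured mice had 50.9, 51.5, 52.4 and 54.6 CPM in SNI-Saline and 59.5, 45.3, 36.9 and 78.9 CPM in SNI-DMI. The mice of SNI-Saline were close together and those of SNI-DMI far apart. Relations with Atf3 were computed after these values were seen, within the 8 injured and within the 8 sham mice, for 7 genes each (14 relations). Among injured mice Npy followed Atf3 with Pearson r = 0.92 (n = 8, exact permutation p = 0.000496, adjusted p = 0.00694) and Spearman rho = 0.86 (p = 0.0107, adjusted 0.0718). Without the 2 mice farthest from the median of Atf3, r was 0.78. Nts gave r = 0.90 (n = 8, exact permutation p = 0.00131, adjusted p = 0.0092), rho = 0.88 (p = 0.00724, adjusted 0.0718) and r = 0.76 without those 2 mice. Ucn gave r = 0.86 (n = 8, exact permutation p = 0.0285, adjusted p = 0.0799) but rho = 0.43 (p = 0.299, adjusted 0.524), and r turned to -0.53 without those 2 mice, so that its relation rests on them.

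Among sham mice r with Atf3 was 0.87 for Npy (n = 8, exact permutation p = 0.00238, adjusted p = 0.0111; without the 2 farthest mice 0.70) and 0.86 for Nts (n = 8, exact permutation p = 0.00484, adjusted p = 0.0169; without them 0.52). The rank correlations were 0.79 and 0.83 (exact permutation p = 0.0279 and 0.0154, adjusted 0.0977 and 0.0718). Ucn had r = 0.67 (n = 8, exact permutation p = 0.0657, adjusted p = 0.153). Gal had r = 0.13 in injured and 0.05 in sham mice (exact permutation p = 0.744 and 0.906, rho = 0.07 and -0.10), and Adcyap1 0.17 and -0.05 (exact permutation p = 0.697 and 0.913, rho = 0.05 and -0.29). Cck ran the other way, with r = -0.60 in injured and -0.61 in sham mice (exact permutation p = 0.132 and 0.111, adjusted 0.23 and 0.223), rho = -0.69 and -0.74 (exact permutation p = 0.0694 and 0.0458, adjusted 0.162 and 0.128) and r = -0.72 and -0.60 without the 2 farthest mice. Crh had r = 0.41 and 0.28 (exact permutation p = 0.335 and 0.497, rho = 0.10 and 0.05).

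Each set of 8 joins saline and DMI mice, and in sham mice Npy, Nts and Atf3 were all called higher with DMI, so the p-values above include that difference. With the treatment means removed and mice permuted only within their treatment, r among injured mice was 0.92 for Npy (n = 8, exact permutation p = 0.0156, adjusted p = 0.109), 0.92 for Nts (p = 0.0104, adjusted p = 0.109) and 0.88 for Ucn (p = 0.146, adjusted p = 0.299). Among sham mice it was 0.76 for Npy (n = 8, exact permutation p = 0.0556, adjusted p = 0.259), 0.72 for Nts (p = 0.0955, adjusted p = 0.267) and 0.74 for Ucn (p = 0.0816, adjusted p = 0.267). None of the 14 relations passed the correction within treatment.

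**Figure D3:**
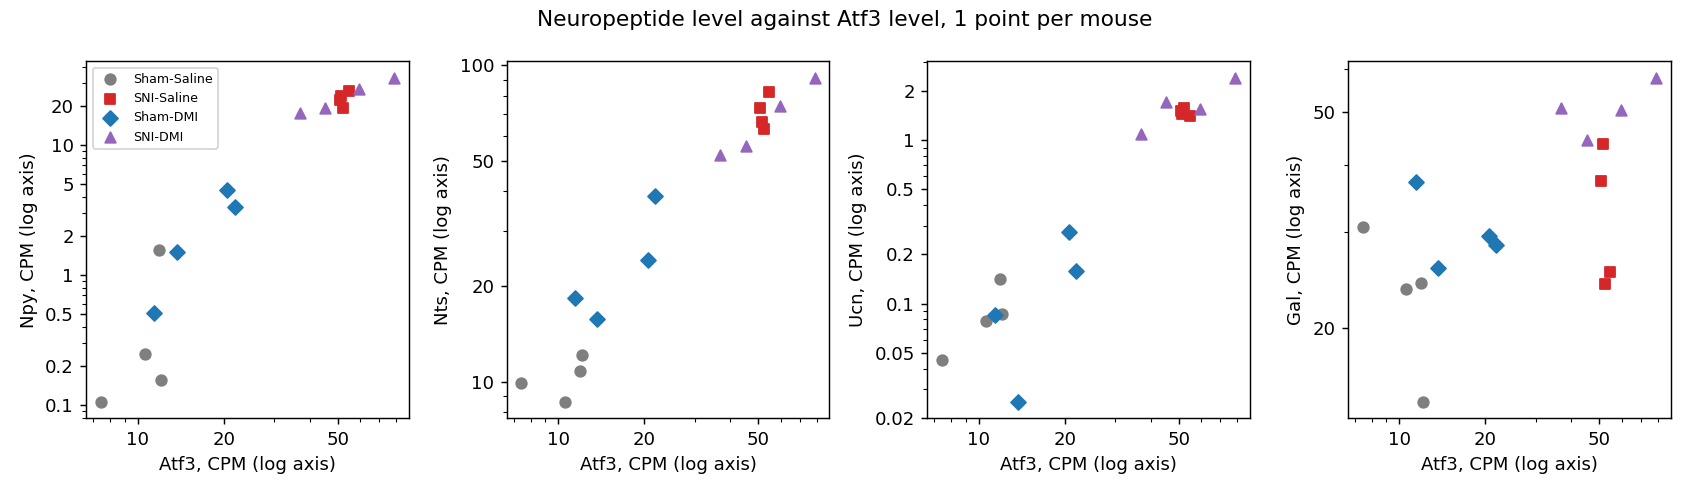
CPM of Npy, Nts, Ucn and Gal against CPM of Atf3 on log axes, 1 point per mouse, with marker shape and colour for the group. Npy and Nts had r from 0.86 to 0.92 with Atf3 inside both the sham and the injured mice, which join saline and DMI (0.72 to 0.92 with treatment means removed), and Sham-DMI replicates 2 and 4 lay between the sham and injured clusters, whereas r was 0.13 and 0.05 for Gal.

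The 11 markers of injured sensory neurons give the setting of these changes, and the list was drawn up with earlier results known. Of these 10 rose with injury under saline and 7 under DMI (Ecel1, Atf3, Gpr151, Sprr1a, Gadd45a, Csf1 and Gap43), with median log2 fold changes of 0.54 and 0.46, where 5.85% and 0.374% of all genes were called as higher, and without SNI-DMI replicate 4 the count under DMI was 4. In sham mice DMI raised Ecel1 (1.24), Sprr1a (2.46), Gap43 (0.25) and Atf3 (0.69) and lowered Cacna2d1 (-0.57), a calcium channel subunit, all on the log2 scale, and in injured mice no marker was called. Over all genes, 23.4% were called with DMI in sham mice and 2.93% in injured mice. The call on Atf3 in sham mice (adjusted p = 0.0391) was lost without Sham-Saline replicate 4 or Sham-DMI replicate 4, where the adjusted p reached 0.118.

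Of 19 receptors and binding proteins for these peptides 17 could be tested, and Cckbr was called in both injury comparisons and was the only receptor called there. Over all genes, 5.85% were called as higher under saline and 0.374% under DMI, so the count under saline was near the share over all genes. Cckbr, the type B receptor for cholecystokinin and gastrin (ENSMUSG00000030898), had 0.643, 0.607, 0.623 and 0.604 CPM in Sham-Saline and 6.72, 7.69, 6.07 and 6.48 CPM in SNI-Saline (log2 fold change 3.44, SE 0.32, adjusted p = 2e-05). In the DMI groups it had 1.06, 2.18, 0.674 and 2.74 CPM in Sham-DMI and 7.88, 5.88, 6 and 11.1 CPM in SNI-DMI (2.18, SE 0.291, adjusted p = 0.0026). With only the 8 libraries compared the latter call was lost (adjusted p = 0.131). Cckar, the type A receptor, had 34.9 ± 4.02 CPM in Sham-Saline, 35.6 ± 2.6 with injury, 39 ± 4.26 with DMI and 37.3 ± 2.82 with both, and did not pass in any comparison. DMI in sham mice also raised Cckbr (1.46, SE 0.326, adjusted p = 0.00701), without overlap, as in 8.62% of all genes.

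Among receptors for neuropeptide Y and neurotensin, Npy1r, Npy2r, Ntsr1 and Ntsr2 were detected and were not called in any comparison. Npy1r, an inhibitory receptor for neuropeptide Y, had 40.7 ± 6.07 CPM in Sham-Saline, 39.9 ± 4.86 with injury, 32.6 ± 6.4 with DMI and 39.3 ± 4.89 with both. Npy2r, a presynaptic receptor for the same peptide, had 23.9 ± 4, 25.2 ± 2.59, 25.2 ± 4.52 and 23.5 ± 2.84 CPM in that order. For neurotensin, Ntsr2 (6.65 ± 1.02 to 7.91 ± 1.16 CPM) exceeded Ntsr1 (0.487 ± 0.18 to 0.765 ± 0.0617 CPM) also per kilobase, at 2.18 against 0.175 in Sham-Saline. The adjusted p-values of these 4 genes in the 2 injury comparisons lay between 0.256 and 0.93. For Ucn and Crh, Crhr2 (5.05 ± 1.65 to 8 ± 1.55 CPM) and Crhr1 (2.3 ± 0.273 to 3.06 ± 0.599 CPM) were both detected. DMI in sham mice went with calls on Crhr1 (0.42), Sort1 (-0.20), a sorting receptor that binds neurotensin, and Galr1 (-0.38), an inhibitory galanin receptor, on the log2 scale. With Cckbr, 2 of the 17 tested were called as higher there and 2 as lower, near the 23.4% of all genes called. The calls on Crhr1, Sort1 and Galr1 were each lost in at least 4 of the 16 fits without 1 library, with adjusted p of up to 0.276.

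The genes that process and release peptides changed by small amounts where they passed the test. All 19 genes of processing and of dense-core vesicles were tested. Injury under saline lowered 3, where 12% of all genes were called. They were Cadps2 (-0.38, SE 0.0743, adjusted p = 0.0117), a priming factor for vesicle release, Furin (-0.31) and Pcsk1 (-0.19), and the calls on the convertase genes Furin and Pcsk1 were lost in fits without 1 library. Under DMI none of the 19 passed for injury, with median log2 fold changes of -0.02 there and -0.04 under saline. In sham mice DMI raised 5, among them the granins Chga (0.27, adjusted p = 0.0252) and Chgb (0.24, adjusted p = 0.0174), and lowered 6, where 23.4% of all genes were called. In injured mice DMI went with higher Pcsk1n (0.34, adjusted p = 0.0876) and lower Cadps (-0.23, adjusted p = 0.0781), both lost in fits without 1 library. Over all genes 2.93% were called there. Of 6 peptidases that degrade neuropeptides, Thop1 rose with DMI in sham mice (0.21, SE 0.0552, adjusted p = 0.0149) and in injured mice (0.19, SE 0.0552, adjusted p = 0.0973), the latter call being lost in fits without 1 library. With injury under saline Ece1, an endothelin-converting enzyme, was called as lower (-0.16, SE 0.0536, adjusted p = 0.0757), a call lost in fits without 1 library, and under DMI none of the 6 was called.

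**Figure D4:**
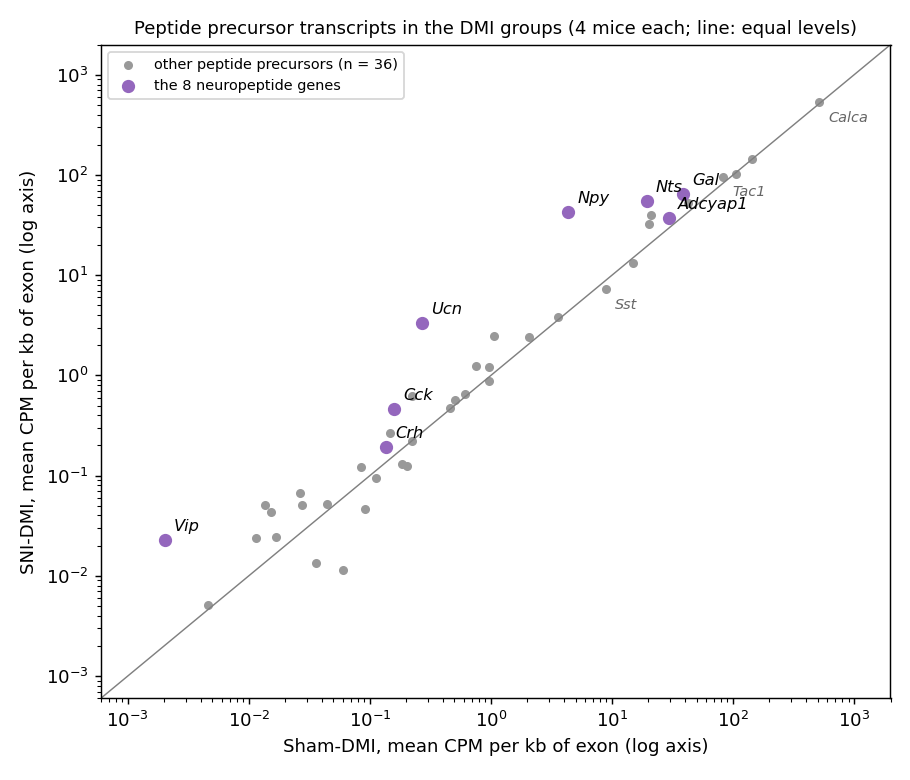
Mean CPM per kilobase of exon in SNI-DMI against Sham-DMI on log axes, for the 8 neuropeptide genes and for 36 other peptide precursors above 0 in both groups, of 44 with a row in the tables. The line marks equal levels. Npy, Ucn and Nts, the genes called for this comparison, lie above it by 9.55-fold, 11.3-fold and 2.8-fold in the fit. Gal, Adcyap1, Cck and Crh, which were not called, and the scarce Vip, which was not tested, lie above it too.

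Other peptide precursors of the ganglion were examined in the same way. Of 35 listed precursors 22 could be tested, and 2 were called with injury under saline, Pthlh (0.57, adjusted p = 0.0385) and Npb (0.73, adjusted p = 0.0841), which encode a parathyroid hormone-related peptide and neuropeptide B, where 12% of all genes were called. Both were lost in fits without 1 library, Pthlh only without Sham-Saline replicate 4 (adjusted p = 0.107). With injury under DMI none was called, where 0.402% of all genes were, with a median log2 fold change of 0.10. In sham mice DMI raised Nmb (0.37, adjusted p = 0.00559), the precursor of the itch peptide neuromedin B, and 3 more, Calca (0.19), Nppb (0.36) and Calcb (0.15), and lowered Adm (-0.93), the last 4 calls being lost in fits without 1 library. In that comparison 23.4% of all genes were called, a share near that of the 22 precursors. Tac1, one of the 3 genes most like Gal, had 251 ± 42.2 CPM in Sham-Saline, 277 ± 43.7 with injury, 282 ± 31.8 with DMI and 328 ± 4.05 with both, and was not called. Relatives of the 8 genes were at or near 0: of 10 genes of the same families only Ucn2 reached the filter, and Galp and Ucn3 had no count in any library.

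Markers of other cells were set beside these results. Over all genes, 12% were called with injury under saline and 0.402% with injury under DMI. Npy is also a peptide of sympathetic neurons. Phox2a, a transcription factor of these neurons, had 1 to 3 counts per group. Of the 5 sympathetic markers of 8 that could be tested only Dbh was called with injury under saline (2.03 on the log2 scale, 12 counts in Sham-Saline and 48 in SNI-Saline), and none under DMI. Together the 8 markers reached 163 to 226 CPM in Sham-Saline, 146 to 197 CPM with injury, 161 to 225 CPM with DMI and 193 to 262 CPM with both, mostly from Th. Nts and Npy are also made in the spinal dorsal horn, and the spinal cord markers, of which 1 of 8 testable was called under saline and 0 of 8 under DMI, summed to 28.6 to 39.4 CPM in sham and 25.5 to 55.2 CPM in injured mice given saline, and to 22.5 to 32.2 CPM and 21.7 to 30.6 CPM in those given DMI. The highest sum was in SNI-Saline replicate 4 (55.2 CPM), which also had the highest Npy and Nts of its group. Replicate 3 of SNI-Saline had a sum of 48.2 CPM and the lowest Npy and Nts of that group. SNI-DMI replicate 4, with Npy at 33 CPM and Nts at 91.5 CPM, had a sum of 21.7 CPM. The part of spinal cord RNA in the peptide results was not tested. Of 8 macrophage markers 4 were called with injury under saline and 0 under DMI (4 and 2 with DESeq2). All 8 had a positive log2 fold change in both comparisons, with medians of 0.58 under saline and 0.64 under DMI. Their sums were 90.5 to 107 CPM in Sham-Saline against 115 to 201 CPM with injury. Under DMI the sums overlapped, at 72.3 to 100 CPM in Sham-DMI against 92.9 to 180 CPM with injury. Their part in the peptide results was not tested. Neutrophil markers were lower with DMI in sham mice (7 of 7 called, where 2535 of 21371 genes were called as lower). Their sums were 11.1 to 41.2 CPM without and 4.4 to 17.2 CPM with the drug, and their part in the rise of Nts and Npy there was not tested.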

How the data were processed

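The authors made stranded mRNA libraries from DRGs of 16 mice, sequenced them with paired reads of 50 bases and counted reads aligned to mm10 for each Ensembl gene. The deposited values are raw counts, whole numbers without normalization, and the submitters' processing notes name HISAT2, HTSeq and DESeq2. The counting mode and the use of strand are not given in the sources used here. Lines of unassigned reads (18.83% to 20.44% of a library) were left out. Gene models came from GENCODE M21, which holds 52403 of the 52636 genes listed, and promoters from RefSeq. None of the 8 genes overlaps another gene in that annotation.

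Tests were run with edgeR 4.0.16 (R 4.3.3). Genes were kept by filterByExpr (21371 genes), scaled by TMM and fitted with glmQLFit with 1 coefficient per group over all 16 libraries, and p-values were adjusted by the Benjamini-Hochberg method. Replicates are separate mice. Intervals of 95% are normal approximations from the SE of the fit, and a floor of 3 counts covers counting error only. Log2 CPM for correlations used a prior count of 2.

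Alternatives were DESeq2 1.42.0, upper-quartile normalization, no low-count filter, at least 10 counts in every library, only the libraries compared, the replicate number as a block, removal of trends on GC content and length (mgcv 1.9.3), and each library left out. The test of relations with Atf3 within treatment was added after the data were seen. Tested on simulated counts for injury under DMI, the procedure recovered 86.5% of 200 changed genes among 21371, with 11 false calls of 184. The simulated counts were independent draws at the fitted spread, without batch differences. All planted changes were larger than those of Gal and Adcyap1, so the share recovered does not apply to changes as small as theirs. Named are the 8 genes, Atf3, called genes of the written lists, the cognate receptors and the 3 tested genes most like each member. The members and lists were chosen with earlier results of these data known.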

Additional observations from a re-analysis of the deposited data

Results flagged for a closer look

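Within groups of 4 mice, single high values were sought in 40 groups of values by Dixon's test, and chance alone marks about 1 in 20. There were 3 such values. Npy in Sham-Saline replicate 2 stood at 1.55 CPM against 0.106 to 0.249 CPM in the other mice of that group, and it moves the fitted rise of Npy with injury and with DMI, as given above. Vip in Sham-Saline replicate 3 stood at 0.0467 CPM (3 counts) against 0.0141 to 0.0174 CPM in the others (1 count each), and Vip in Sham-DMI replicate 2 at 0.0274 CPM (2 counts) against 0 CPM in the others, which are differences of 1 or 2 reads.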

How the results depend on the processing

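The calls on Npy and Ucn for injury under DMI and on Npy and Nts for DMI in sham mice were kept in every alternative that gave a value, and the call on Nts for injury under DMI in all but the fit of only the libraries compared. A minimum of 10 counts in every library leaves no value for Npy, Ucn, Cck, Crh and Vip, and the fit of only the sham libraries none for Ucn, Crh and Vip. Counts of called genes over the whole table moved more. For injury under saline 2571 genes were called, 1044 after removal of GC and length trends and 682 to 3286 without 1 library (the lowest without Sham-Saline replicate 3). For injury under DMI 86 were called, 473 with DESeq2, 310 without the filter, 9 with only the libraries compared, 216 after trend removal and 17 to 850 without 1 library, the lowest without SNI-DMI replicate 4 and the highest without Sham-DMI replicate 1. For DMI in injured mice 626 were called, 1632 with DESeq2, 1812 with only the libraries compared, 51 after trend removal and 0 to 1842 without 1 library (0 in 5 of these fits, those without replicates 1 or 3 of SNI-Saline and those without replicates 1, 2 or 3 of SNI-DMI). For DMI in sham mice 5010 were called, and 3286 to 6094 without 1 library (the lowest without Sham-Saline replicate 3). The interaction had 0 calls, 16 with DESeq2 and 0 to 1 without 1 library. Trend removal also shifted the split of higher and lower calls from 80 and 6 to 101 and 115 for injury under DMI, from 282 and 344 to 46 and 5 for DMI in injured mice, and from 2475 and 2535 to 3337 and 783 for DMI in sham mice. The cause was not tested.

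Replicate numbers are shared by the groups, and same-numbered mice correlated at -0.081 to 0.184 in their deviations from group means. The own number gave the highest correlation only for replicates 2 and 3, with injury under saline and with DMI in injured mice. The main fit did not pair mice by number, and these correlations cannot tell whether the numbers mark shared handling. With the replicate block 2106 genes were called for injury under saline, 70 for injury under DMI, 172 for DMI in injured mice, 4739 for DMI in sham mice and 0 for the interaction.

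Signs of some log2 fold changes turned, in none of the comparisons in which that neuropeptide gene was called. After trend removal, the effect of DMI in injured mice was -0.01 for Npy and 0.09 for Nts, and in sham mice 0.02 for Cadps. Leaving out 1 library moved the effect of DMI in injured mice from -0.11 (SNI-DMI replicate 4 out) to 0.22 for Npy, with -0.00 when SNI-Saline replicate 3 was out, and from -0.23 to 0.07 for Nts, positive also at 0.02 (SNI-Saline replicate 4 out) and 0.03 (SNI-DMI replicate 2 out). With SNI-DMI replicate 4 or 3 out it ranged from -0.03 to 0.37 for Ucn, from -0.15 to 0.24 for Atf3 and from -0.03 to 0.31 for Cckbr. Injury under DMI ranged from -0.12 (SNI-DMI replicate 4 out) to 0.94 for Crh, injury under saline from -0.04 (Sham-Saline replicate 1 out) to 0.42 for Cck, and the interaction from -0.88 to 0.07 (Sham-DMI replicate 2 out) for Ucn.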
